A study of Homo sapiens with 12 samples.

Results

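The antiviral effector genes followed here, 10 of 39099 genes for which transcript abundances were summed, belong to the interferon response and were measured in PANC-1 and AsPC-1, established lines of human pancreatic cancer cells, with and without added p63. They are MX1, MX2, IFI6, IFI27, IFI44, IFI44L, IFITM1, IFITM2, IFITM3 and BST2, chosen by name for their family and role after falls of interferon-response genes with p63 had been seen in the AsPC-1 libraries of these data. The AsPC-1 falls that chose them are therefore given as a description. Each line was labelled Mock, TAp63 O/E or deltaNp63 O/E (O/E, overexpression), with 2 biological replicates in each of the 6 groups and 12 libraries in all. TP63 encodes a p53-family transcription factor of squamous epithelium: its upstream promoter gives TAp63, with the transactivation domain, and an internal promoter gives deltaNp63. The vector, its promoter, the time after delivery, the nature of the mock control and whether a line was 1 clone or a pool are not given in the sources used here. Values were in TPM, a transcript abundance relative to the library total and already scaled to transcript length, so levels of different genes can be set side by side, but read depth is unknown and the spread between 2 replicates is the measure of precision. All 10 members passed the filter of at least 1 TPM in at least 2 libraries, which left 14767 genes for testing, although IFI27 reached 1 TPM in only 11 of the 12 libraries.

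Type I and type III interferons bind receptors that signal through the kinases JAK1 and TYK2 to transcription factors that bind the interferon-stimulated response element in the promoters of target genes. The products of the 10 members act at different steps of viral infection. MX1 and MX2 are dynamin-like GTPases that bind incoming viral nucleocapsids, the IFITM proteins sit in cell and endosome membranes and hinder viral fusion, and BST2 (tetherin) holds budding virions on the cell surface. IFI6 and IFI27 are small hydrophobic membrane proteins of 1 family, and IFI44 and IFI44L are paralogous cytoplasmic proteins. Many tumour cell lines express such genes without added interferon.

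The members' RefSeq promoter windows on GRCh38.p14 (250 bases before to 50 bases from the start site) were searched for a literal form of the response element. The letters sought were GAAANNGAAA and their reverse complement TTTCNNTTTC. Windows were present for 8 of the 10 members, all except MX2 and IFITM2. Each of these 8 had a match in at least 1 window, whereas 4.376% of the 27305 genes with a window did. In the window at the start of the most abundant member transcript, 7 of 8 members had a match and 6 had 2 or more, against 0.2591% of all 35116 windows with 2 or more. The form TTCNNNGAA of the gamma-activated sequence, a promoter element of the response to interferon gamma, was in the windows of 4 of the 8 members and of 9.376% of genes; its matches can share bases with those of the response element. The windows below show how differently the matches are arranged. Each runs 5′ to 3′ on the gene's own strand, from 200 bases before the start site to 25 bases from it, with matches in capitals.

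IFI6 chr1:27672168-27672392 (minus strand): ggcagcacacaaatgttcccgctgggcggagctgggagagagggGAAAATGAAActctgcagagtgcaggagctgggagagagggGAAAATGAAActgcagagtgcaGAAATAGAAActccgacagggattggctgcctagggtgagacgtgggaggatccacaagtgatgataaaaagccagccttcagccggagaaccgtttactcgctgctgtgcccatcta
IFI44L chr1:78620248-78620472 (plus strand): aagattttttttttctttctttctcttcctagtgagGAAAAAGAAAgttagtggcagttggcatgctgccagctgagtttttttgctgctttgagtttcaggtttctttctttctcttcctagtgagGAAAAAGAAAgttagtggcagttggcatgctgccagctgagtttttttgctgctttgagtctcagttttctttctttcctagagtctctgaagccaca
MX1 chr21:41420358-41420582 (plus strand): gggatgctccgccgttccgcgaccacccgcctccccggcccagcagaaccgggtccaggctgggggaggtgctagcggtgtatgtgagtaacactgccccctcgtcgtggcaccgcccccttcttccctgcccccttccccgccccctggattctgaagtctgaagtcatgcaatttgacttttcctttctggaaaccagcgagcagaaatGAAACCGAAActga
IFITM1 chr11:313840-314064 (plus strand): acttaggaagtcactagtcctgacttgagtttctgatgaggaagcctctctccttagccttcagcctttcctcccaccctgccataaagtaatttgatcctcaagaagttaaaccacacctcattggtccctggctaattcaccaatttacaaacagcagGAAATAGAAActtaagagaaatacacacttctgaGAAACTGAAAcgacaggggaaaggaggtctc
IFITM3 chr11:320836-321060 (minus strand): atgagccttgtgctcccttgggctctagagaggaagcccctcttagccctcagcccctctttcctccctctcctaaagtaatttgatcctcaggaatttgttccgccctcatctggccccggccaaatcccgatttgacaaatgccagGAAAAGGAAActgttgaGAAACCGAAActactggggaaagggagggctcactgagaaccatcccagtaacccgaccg
BST2 chr19:17405606-17405830 (minus strand): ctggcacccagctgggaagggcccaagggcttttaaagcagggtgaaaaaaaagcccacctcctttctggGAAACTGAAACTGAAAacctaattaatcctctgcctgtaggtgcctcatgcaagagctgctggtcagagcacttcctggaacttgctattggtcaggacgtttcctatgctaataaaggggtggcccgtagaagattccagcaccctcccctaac

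IFI6 carried 3 matches, beginning 156, 115 and 93 bases before the start site, and the first pair lay in 2 exact copies of a 29-base stretch set 41 bases apart. In IFI44L, both matches, 164 and 73 bases before the start, lay in an 85-base stretch present as 2 exact copies 91 bases apart. MX1 had no match in the window at the start of its main transcript, and the sequence shown belongs to a RefSeq start site 5681 bases upstream, with the match from base 11 to base 20 after that start (the start site itself counted as 0). IFITM1 and IFITM3, neighbouring genes on chromosome 11, had matches at 40 and 6 and at 52 and 35 bases before their starts, and shared an exact run of 19 bases. The BST2 matches, 130 and 124 bases before the start, overlapped in 1 run of repeated units. A match is a run of letters and not evidence of binding, and no binding was measured here. The members were chosen as interferon-response genes, and their matches were not compared with those of other interferon-stimulated genes. A link between the matches and the falls in AsPC-1 was not tested.

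**Figure D1:**
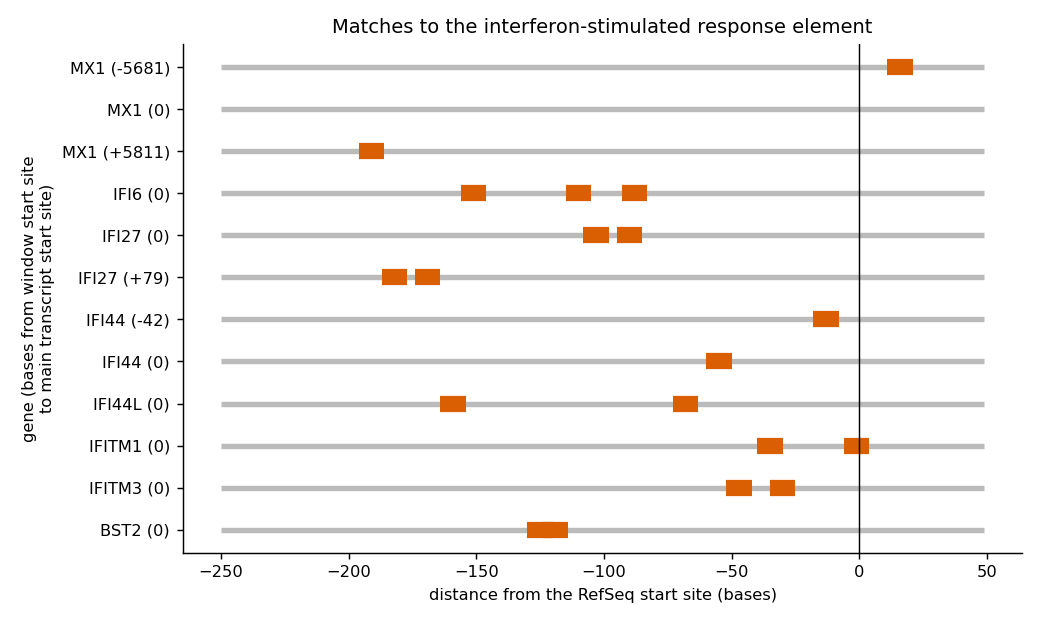
Positions of the literal response-element matches (orange) in the 12 RefSeq promoter windows of the 8 members that had one. The x axis is distance from the RefSeq start site in bases, the grey bars are the windows, and the number after each gene is the distance in bases to the start of its main transcript. IFI6 has 3 matches and the window at the main MX1 start has none.

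TP63 was at 0.0245 to 1.10 TPM in the 4 mock libraries and at 102 to 1187 TPM in the 8 others, as the labels say. In AsPC-1 it was higher with deltaNp63 (245 and 350 TPM) than with TAp63 (102 and 170 TPM), so dose and isoform cannot be told apart between the constructs. Epithelial markers were present in every library of both lines (EPCAM at 42.6 to 1410 TPM), whereas CDH1, encoding E-cadherin, was at means of 91.6 TPM in AsPC-1 mock and 2.96 TPM in PANC-1 mock. The mesenchymal markers were higher in PANC-1 mock than in AsPC-1 mock. In AsPC-1 mock and PANC-1 mock, mean VIM was at 2218 and 4567 TPM and CDH2 at 0.0109 and 21.5 TPM. ZEB1 was at 15.7 and 22.6 TPM, and FN1 at 0.249 and 0.822 TPM. Of 11 markers of leukocytes, fibroblasts and endothelium, PTPRC, CD3E and CDH5 were at or near 0 (at most 0.0875 TPM), and the summed level ran from 111 to 138 TPM over the AsPC-1 libraries and from 82.0 to 113 TPM over the PANC-1 libraries, mostly LYZ in AsPC-1 and COL1A1 in PANC-1. In bulk RNA, fewer cells of a kind and less RNA per cell cannot be told apart.

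The MX genes had high levels in the mock cultures of both lines. MX1 (ENSG00000157601, hg38 chr21:41420020-41470071, plus strand) was at 228 and 256 TPM in the AsPC-1 mock libraries, at 64.9 and 92.8 TPM with TAp63 and at 37.9 and 49.97 TPM with deltaNp63. The 3 groups did not overlap, and the means with the constructs were 32.6% and 18.2% of the mock mean. In PANC-1, MX1 was at 429 and 439 TPM with mock, 458 and 430 TPM with TAp63 and 411 and 503 TPM with deltaNp63, and these groups overlapped. Every PANC-1 library exceeded every AsPC-1 library. MX1 overlaps TMPRSS2 on the opposite strand, which was at 4.55 TPM or less.

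MX2 (ENSG00000183486, hg38 chr21:41361999-41409393, plus strand) lies next to MX1. Its level was 53.7 and 68.0 TPM in AsPC-1 mock, 11.8 and 21.5 TPM with TAp63 and 9.30 and 8.82 TPM with deltaNp63. The means were 27.3% and 14.9% of mock, and the groups did not overlap. In PANC-1 the 6 libraries lay between 62.4 and 71.6 TPM. The mock levels of the 2 lines differed by 0.06 on the log2 scale (95% confidence interval -0.42 to 0.55, limma adjusted p 0.808).

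The MX2 sums of the 2 lines were made of different transcripts. MX2-201, the full-length coding transcript that starts at 41362027, held between 74.6% and 88.4% of MX2 in AsPC-1 libraries and between 51.2% and 56.8% in PANC-1 libraries. MX2-204, annotated as a nonsense-mediated decay transcript that starts at 41370085, was listed at 0 in all 6 AsPC-1 libraries. In PANC-1 it was at 15.5 and 17.4 TPM with mock, 19.99 and 15.3 TPM with TAp63 and 20.6 and 19.6 TPM with deltaNp63, or 24.5% to 30.02% of MX2. The short coding transcript MX2-203, whose start at 41370213 is close to that of MX2-204, was at 0.278 and 0.359 TPM in AsPC-1 mock and 5.51 and 6.57 TPM in PANC-1 mock (log2 difference 2.41, SE 0.20, limma adjusted p 2.01e-05 over 51675 transcripts). Between these mock cultures 44.7% of all transcripts tested passed, so passing alone does not set a transcript apart. MX2-201 was at means of 51.8 TPM in AsPC-1 mock and 35.2 TPM in PANC-1 mock, a log2 difference of -0.54 that did not pass (SE 0.21, limma adjusted p 0.0672). Within AsPC-1, MX2-201 was at 10.4 and 17.2 TPM with TAp63 and 6.94 and 7.51 TPM with deltaNp63, below its 45.5 and 58.1 TPM with mock. How the quantifier divided reads among transcripts that share exons is not given in the sources used here, and these shares rest on it.

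**Figure D2:**
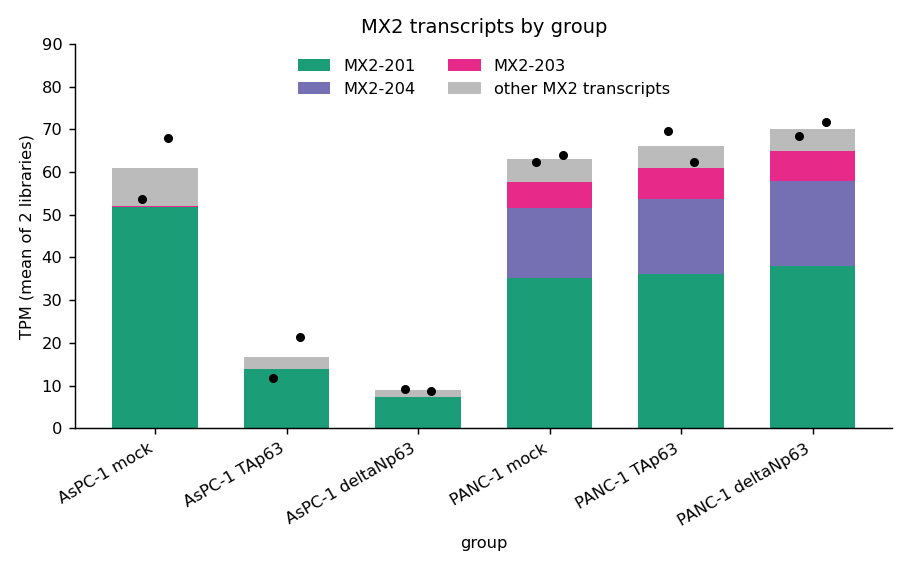
MX2 abundance by transcript in the 6 groups. The y axis is TPM, stacked bars are transcript means of 2 libraries, and black points are the gene sums of the single libraries. MX2-204, listed at 0 in AsPC-1, takes 24.5% to 30.02% of MX2 in PANC-1 libraries, while the gene sums of the mock groups average 60.9 and 63.2 TPM.

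MX1 also showed a line difference in transcript make-up. Its main coding transcript MX1-202, which starts at 41426239, held 80.6% to 89.3% of MX1 in AsPC-1 and 84.1% to 85.9% in PANC-1. The intron-retaining transcript MX1-214, which starts upstream at 41420280, was at 5.45 and 6.50 TPM in AsPC-1 mock and 32.1 and 32.4 TPM in PANC-1 mock, a log2 difference of 2.26 (SE 0.16, limma adjusted p 8.45e-06), and the groups did not overlap. For MX1-202 the difference was 0.78 (SE 0.20, limma adjusted p 0.0114). Of all transcripts tested, 44.7% passed between the mock cultures.

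IFI6 was the most abundant of the 10 genes in every PANC-1 library. IFI6 (ENSG00000126709, hg38 chr1:27666064-27672212, minus strand) was at 1243 and 1195 TPM in AsPC-1 mock, 406 and 502 TPM with TAp63 and 261 and 344 TPM with deltaNp63. All construct libraries were below both mock libraries, with means at 37.2% and 24.8% of mock. PANC-1 libraries were between 3167 and 3325 TPM, a range of 1.05-fold from lowest to highest. The gene overlaps an antisense RNA, ENSG00000225886, at up to 35.9 TPM.

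IFI27 (ENSG00000165949, hg38 chr14:94104836-94116695, plus strand) was represented only by transcripts annotated as keeping an intron. Of its 13 transcripts in GENCODE, 8 are annotated as coding, and none of these 8 was among the rows used here; the 2 matched rows are annotated as retained introns, so the level of coding IFI27 RNA was not analysed here. The sum of these rows was 5.09 and 4.71 TPM in AsPC-1 mock, 2.16 and 1.603 TPM with TAp63 and 2.44 and 1.95 TPM with deltaNp63. In PANC-1 it ran from 0.687 to 1.57 TPM. In AsPC-1, IFI27 was the 1 member whose mean was lower with TAp63 than with deltaNp63, and those libraries overlapped.

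The paralogs IFI44 and IFI44L, neighbours on chromosome 1, were higher in the mock libraries of AsPC-1 than in those of PANC-1. IFI44 (ENSG00000137965, hg38 chr1:78649796-78664078, plus strand) was at 100 and 93.0 TPM in AsPC-1 mock, 44.7 and 42.8 TPM with TAp63 and 36.9 and 35.5 TPM with deltaNp63. These replicates lay close together and the groups did not overlap, with means at 45.3% and 37.5% of mock. In PANC-1 the 6 libraries lay between 18.6 and 22.7 TPM, below every AsPC-1 library including those with p63.

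IFI44L (ENSG00000137959, hg38 chr1:78619902-78646145, plus strand) was a low-level gene here. Its level was 9.11 and 7.17 TPM in AsPC-1 mock, 1.71 and 1.68 TPM with TAp63 and 1.24 and 1.06 TPM with deltaNp63. Its means of 20.9% and 14.2% of mock were the lowest proportions among the 10 members with either construct. In PANC-1 the 2 mock libraries, at 1.21 and 2.96 TPM, spanned all 4 construct libraries, which were between 1.55 and 1.93 TPM. The AsPC-1 deltaNp63 mean of 1.15 TPM was below the mean of every PANC-1 group.

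The 3 IFITM genes lie side by side on chromosome 11 and are close paralogs, so reads could be assigned to the wrong member. IFITM1 (ENSG00000185885, hg38 chr11:310041-315272, plus strand) was at 574 and 621 TPM in AsPC-1 mock, 205 and 261 TPM with TAp63 and 136 and 197 TPM with deltaNp63. Its means were 39.0% and 27.9% of mock, and the highest deltaNp63 library was just under the lowest TAp63 library. In PANC-1 it ran from 581 to 650 TPM, a range that held 1 of the AsPC-1 mock libraries.

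IFITM2 (ENSG00000185201, hg38 chr11:303655-309397, plus strand) moved least on the log2 scale with TAp63. The AsPC-1 mock libraries had 185 and 199 TPM, those with TAp63 95.5 and 125 TPM and those with deltaNp63 88.3 and 97.7 TPM, and the 2 construct groups overlapped. Means were 57.6% and 48.5% of mock, the highest proportions of the members. PANC-1 libraries were between 221 and 239 TPM. IFITM2 too differed between the lines in transcript make-up: IFITM2-202, annotated as a nonsense-mediated decay transcript, was at 45.0 and 43.6 TPM in AsPC-1 mock and at 2.78 and 2.17 TPM in PANC-1 mock (log2 difference -3.71, SE 0.28, limma adjusted p 1.03e-05). The coding transcript IFITM2-201 differed the other way, at 140 and 155 TPM against 222 and 219 TPM (log2 difference 0.58, SE 0.14, limma adjusted p 0.00786), and the gene sums differed by 0.22 (limma adjusted p 0.113). Among all transcripts tested, 44.7% passed between the mock cultures.

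IFITM3 (ENSG00000142089, hg38 chr11:319676-329475, minus strand) was the most abundant of the IFITM genes. The AsPC-1 mock libraries had 1064 and 1185 TPM, those with TAp63 467 and 610 TPM and those with deltaNp63 365 and 450 TPM. The groups did not overlap, and the means were 47.9% and 36.2% of mock. In PANC-1 the libraries lay between 2402 and 2626 TPM.

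BST2 (ENSG00000130303, hg38 chr19:17402939-17405630, minus strand) was at 281 and 303 TPM in AsPC-1 mock, 143 and 153 TPM with TAp63 and 109 and 120 TPM with deltaNp63. The 3 groups were apart, with means at 50.6% and 39.2% of mock. PANC-1 libraries, at 155 to 186 TPM, lay between AsPC-1 mock and AsPC-1 TAp63.

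**Figure D3:**
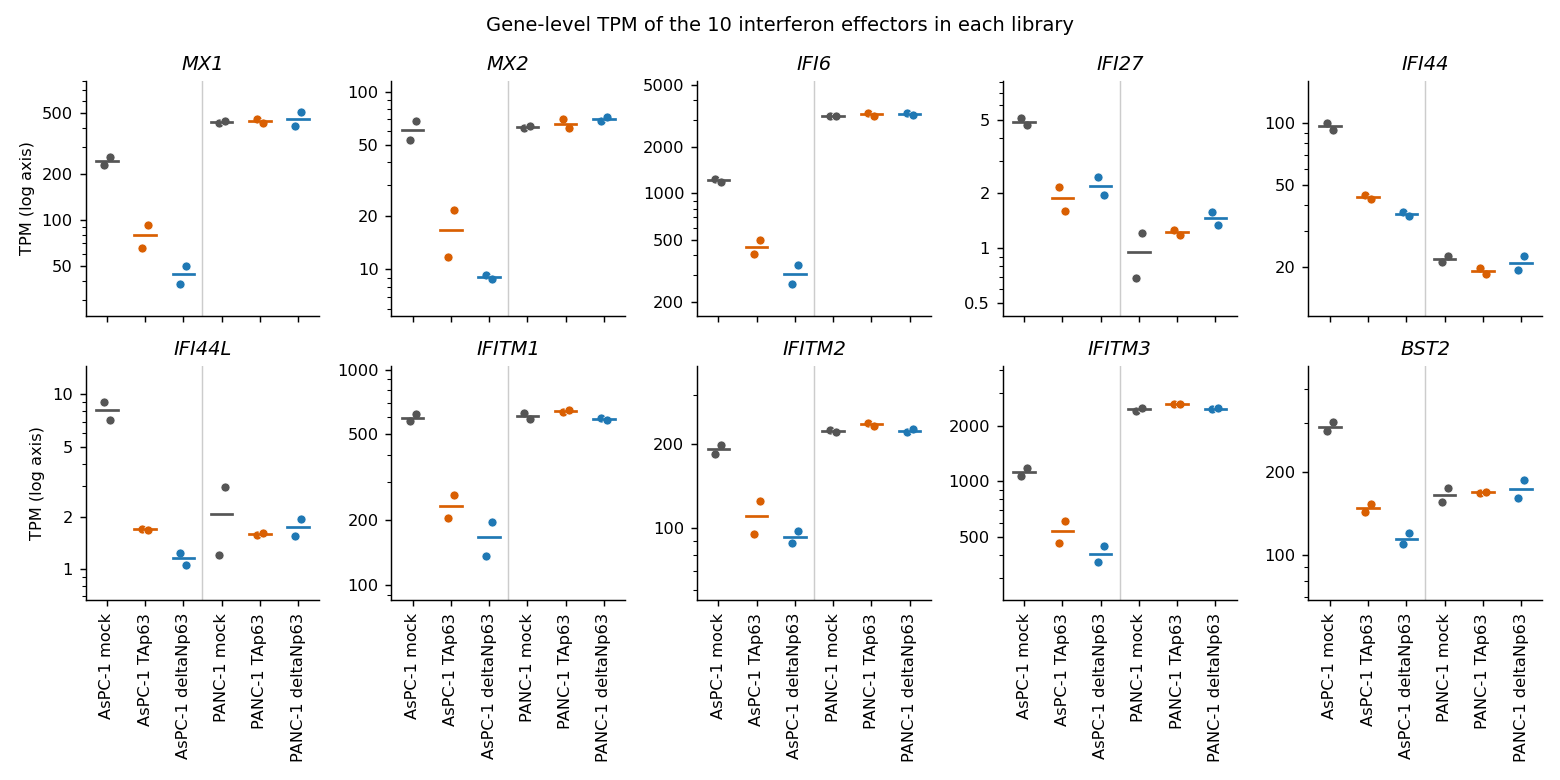
TPM of each member in all 12 libraries, on log axes. Points are single libraries, horizontal lines are means of 2, and the grey vertical line divides AsPC-1 (left) from PANC-1 (right). In AsPC-1 every member is lower in all 4 construct libraries than in both mock libraries, while in PANC-1 the groups sit near a common level.

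In AsPC-1 all 10 members were lower with each construct than with mock. The log2 fold changes, on the log2(TPM + 1) scale on which they understate changes of low genes, ran from -1.86 (MX2) to -0.80 (IFITM2) with TAp63 and from -2.61 (MX2) to -0.89 (IFI27) with deltaNp63. Median changes were -1.25 and -1.66 for the members and -0.076 and -0.12 for all genes tested. In the limma fit over 14767 genes, 10 of 10 members passed the adjusted threshold of 0.05 with TAp63, where 0.609% of genes passed as lower, and 10 of 10 with deltaNp63, where 6.51% did. Values did not overlap with mock for any of the 10 members with either construct, and 35.4% and 41.1% of all genes were likewise lower without overlap. Since these falls were known when the members were named, the counts describe the set. The calls rest on a spread estimated from both lines: with the 6 AsPC-1 libraries alone, 0 members passed with TAp63 and 1 with deltaNp63, where 0.00677% and 0.0542% of all genes did. The IFI27 calls were lost without either mock library (limma adjusted p 0.203 and 0.115 with TAp63, 0.144 and 0.0851 with deltaNp63), without either TAp63 library (0.0778 and 0.118) and without deltaNp63 replicate 1 (0.0729). With TAp63, IFI44L did not pass without mock replicate 1 (0.108) or either TAp63 library (0.0803 and 0.0516), and IFITM2 did not pass without mock replicate 1 (0.0771) or 2 (0.107).

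The 2 libraries of a construct also differed in their amount of TP63. In each AsPC-1 construct pair, replicate 2 had more TP63 and a higher mean over the members. That mean, with each member centred within the cell line on the log2(TPM + 1) scale, was -0.42 in the TAp63 library with 102 TPM of TP63 and -0.17 in the one with 170 TPM. It was -0.78 in the deltaNp63 library with 245 TPM and -0.64 in the one with 350 TPM. Single members did not all follow: 7 of 10 were higher in replicate 2 with TAp63 and 6 of 10 with deltaNp63 (55.3% and 55.7% of all genes were), and IFI27, IFI44 and IFI44L were lower in both pairs. The mock pair had the same order without added p63, with 6 of 10 members higher in replicate 2, means of 0.99 and 1.03, and TP63 at 1.10 and 0.817 TPM. With 1 pair for each group there is no test of this order.

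TAp63 and deltaNp63 were compared directly in AsPC-1. For 9 of the 10 members the level was lower with deltaNp63, the exception being IFI27, and for 8 of the 10 the 2 groups did not overlap, where 19.6% of all genes were higher with TAp63 without overlap. The largest differences (TAp63 minus deltaNp63) were in MX1, at 0.82 (SE 0.18), and MX2, at 0.75 (SE 0.22), followed by 0.59 in IFI6 (SE 0.13). IFITM1 differed by 0.49, IFITM3 by 0.40 and BST2 by 0.37. None of the 10 passed in limma (adjusted p from 0.611 to 0.808), where 0.0203% of genes did, and 7 had an unadjusted p under 0.05, as 7.92% of genes did. The median difference was 0.38 for the members and 0.04 for all genes. Without AsPC-1 deltaNp63 replicate 2, the one with the higher mean over the members, 4 members passed in a fit where 7% of all genes did: MX1 at 1.02, IFI6 at 0.79, IFITM1 at 0.76 and IFITM3 at 0.55 (limma adjusted p 0.0216, 0.0143, 0.0174 and 0.0445).

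**Figure D4:**
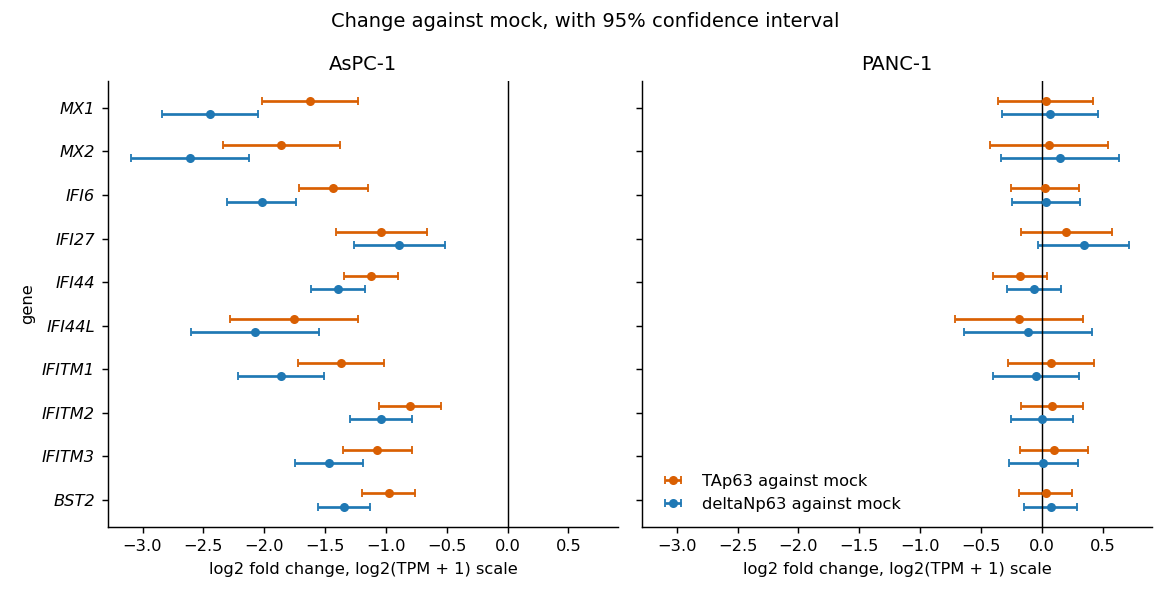
Log2 fold change of each member against mock in AsPC-1 (left) and PANC-1 (right), with 95% confidence intervals from the limma fit. Orange points are TAp63 and blue points deltaNp63. The AsPC-1 points lie between -2.61 and -0.80, and every PANC-1 interval includes 0.

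In PANC-1 no difference of a member from mock was detectable with either construct, at TP63 levels of 324 to 1187 TPM. Log2 fold changes of the members ran from -0.19 (IFI44L) to 0.20 (IFI27) with TAp63 and from -0.11 (IFI44L) to 0.34 (IFI27) with deltaNp63. The 95% confidence intervals of all 10 genes reached from -0.72 to 0.57 with TAp63 and from -0.64 to 0.72 with deltaNp63, with the lower ends set by IFI44L and the upper ends by IFI27, the members at the lowest levels. Without PANC-1 mock replicate 2 the IFI44L changes were 0.23 with TAp63 and 0.31 with deltaNp63. The fit of transcript rows took the most abundant transcript of each member, and for IFI27 this was IFI27-202, at -0.0059 and -0.10. The other row, IFI27-201, was at 0.25 with TAp63 and 0.54 with deltaNp63 (SE 0.40 for each). No direction can therefore be read for IFI44L or IFI27. For MX1 the interval with deltaNp63 was -0.33 to 0.46, and for IFI6 it was -0.25 to 0.32. In limma 0 of 10 members passed with TAp63 (0.00677% of genes passed), with deltaNp63 (0.0406%) or between the constructs (0.0271%), with adjusted p of 1 for each member, and 0 members had an unadjusted p under 0.05 in any of the 3 comparisons, where 3.41%, 2.34% and 2.96% of genes did. Libraries did not overlap with mock for 4 members with TAp63 (IFI44 lower, and IFITM1, IFITM2 and IFITM3 higher), against 42.4% of genes. With deltaNp63 this held for 3 members (MX2, IFI6 and IFI27, all higher), against 27.1% of genes, and between the constructs for 4, against 34%. Member medians were 0.05 with TAp63 and 0.02 with deltaNp63.

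Between the mock cultures of the lines, 7 of the 10 members differed. IFI6 and IFITM3 were higher in PANC-1 by log2 differences of 1.38 (SE 0.13, limma adjusted p 4.06e-06) and 1.12 (SE 0.13, limma adjusted p 1.99e-05), and MX1 by 0.84 (SE 0.18, limma adjusted p 0.00148). IFI44 was lower in PANC-1 by a difference of -2.09 (SE 0.10, limma adjusted p 2.8e-08). The intron-retaining IFI27 transcripts (-1.61), IFI44L (-1.62) and BST2 (-0.82) were lower as well, with limma adjusted p of 0.000129 or less. MX2, IFITM1 (0.03, limma adjusted p 0.876) and IFITM2 did not pass. The 7 members that passed, 3 higher and 4 lower, compare with 72.5% of all genes passing between these lines, 44.6% higher and 27.9% lower. The median of all genes was 0.24 higher in PANC-1 and that of the members 0.05, which became -0.13 with each library centred on its median.

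The effect of each construct was then set against that in the other line. For all 10 members the fold change was higher in PANC-1, by 0.89 (IFITM2) to 1.92 (MX2) for TAp63 and by 1.04 (IFITM2) to 2.76 (MX2) for deltaNp63. The interaction passed for 9 members with deltaNp63, where 0.562% of genes passed in that direction, and for 2 with TAp63, IFI6 at 1.46 and BST2 at 1.01, where 0.0745% passed. IFI27, at 1.23, was the exception with deltaNp63. These values contain the AsPC-1 falls by which the set was known and are a description. For TAp63 the BST2 call was lost whichever 1 of the AsPC-1 or PANC-1 libraries compared was left out. The IFI6 call was lost in each such fit except the one without AsPC-1 TAp63 replicate 2. In that fit, with 1 AsPC-1 TAp63 library, the differences were larger than with all libraries in MX1 (1.91), MX2 (2.33), IFITM1 (1.62), IFITM2 (1.08), IFITM3 (1.36) and BST2 (1.06). For deltaNp63, neither IFI44L (limma adjusted p 0.0803 to 0.202) nor IFITM2 (0.062 to 0.123) passed without AsPC-1 deltaNp63 replicate 1, either AsPC-1 mock library or either PANC-1 deltaNp63 library, and IFITM2 did not pass without PANC-1 mock replicate 1 (0.106) or 2 (0.0996). Without AsPC-1 deltaNp63 replicate 2 all 10 passed, with IFI27 at 1.12 (limma adjusted p 0.0244), in a fit where 15% of all genes did.

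Other genes of the pathway, taken from lists written with earlier results of these data known, were read from the same fit. Of 59 other interferon-stimulated genes, 34 passed as lower with TAp63 in AsPC-1 and 52 with deltaNp63, and 0 passed as higher. Of all genes, 0.609% and 6.51% passed as lower. Below 0 were 57 and 58 of the 59, with medians of -0.79 and -1.17 (-0.076 and -0.12 for all genes). CMPK2, a mitochondrial nucleotide kinase, and OAS2, an enzyme that makes the activator of RNase L, had the largest changes, at -2.91 and -2.71 with deltaNp63. Of 14 signalling genes and transcription factors, 3 passed as lower with TAp63 and 6 with deltaNp63, while 12 and 13 were below 0. Among those passing was USP18, a negative regulator of the type I receptor, at -1.13 and -1.71. Among 10 interferons and receptors tested, 9 were below 0 with TAp63 and 6 with deltaNp63. The 3 that passed as lower with either construct were the lambda interferons IFNL1, IFNL2 and IFNL3. They were at -0.90 to -1.40 with TAp63 and -1.25 to -1.34 with deltaNp63. IFNL2 was named after its values were seen, and it is a near-identical copy of IFNL3. IFNL1 was at a mean of 6.65 TPM in AsPC-1 mock and 829 TPM in PANC-1 mock. Of 7 close relatives of the members tested, 0 passed with TAp63 and 2 with deltaNp63, IFI27L1 at -0.57 and IFI27L2 at -0.47, named after their values were seen. The dynamins DNM3 (-0.60) and DNM2 (-0.60), relatives of the MX proteins, had adjusted p of 0.148 and 0.0617 in limma with deltaNp63. In PANC-1 0 genes of these 4 lists passed with either construct.

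**Figure D5:**
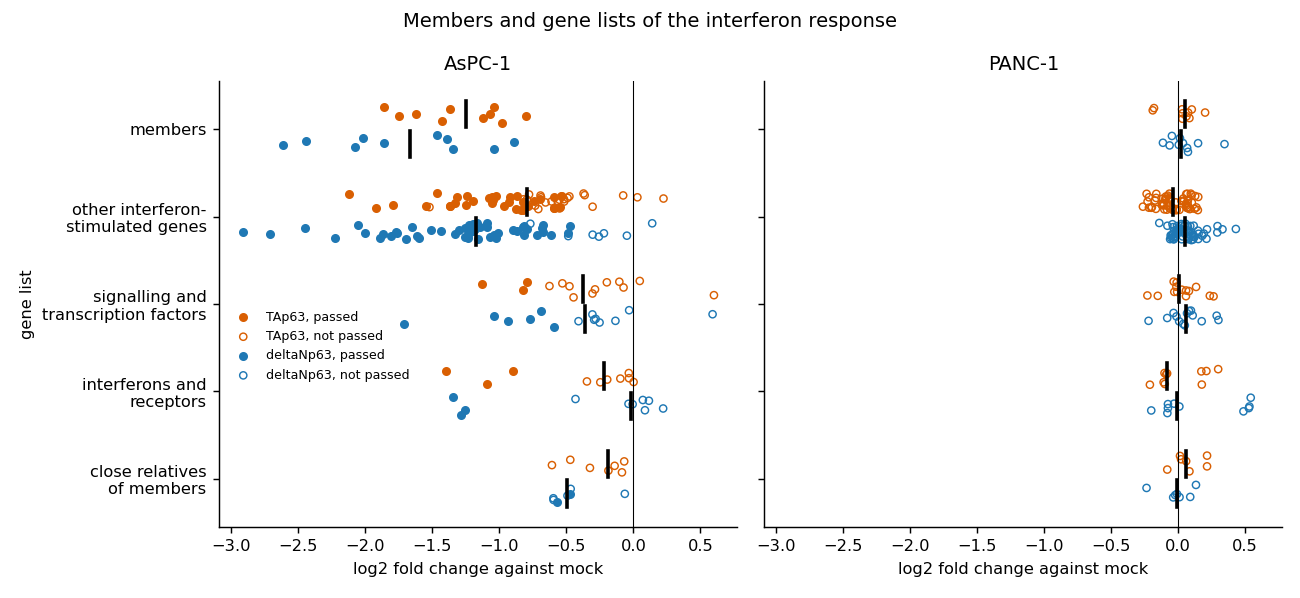
Log2 fold changes against mock of the members and of 4 lists of the interferon response, in AsPC-1 (left) and PANC-1 (right). Filled points passed the adjusted threshold and open points did not, orange is TAp63, blue is deltaNp63, and black bars are medians. In AsPC-1 the medians of the other interferon-stimulated genes are -0.79 and -1.17, and in PANC-1 every point is open.

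The genes most like the members were sought by correlation with the members' mean profile. Over the 12 libraries, with log2(TPM + 1) centred within each line, the 8 highest values of Pearson's r among other genes, from 0.990 to 0.995, belonged to UBE2L6, SAMHD1, TM4SF5, PARP12, OAS2, EPSTI1, IFIT3 and XAF1. The points are the libraries of the comparisons above, and r carries no test. The members' mean profile ran from -0.78 to 1.03 in AsPC-1 and from -0.098 to 0.063 in PANC-1, so r mostly reflects AsPC-1. Of these genes 7 were in the list of interferon-stimulated genes. The exception, TM4SF5, a tetraspanin-like membrane protein, averaged 34.6 TPM in AsPC-1 mock, 29.0 TPM under TAp63 and 27.7 TPM under deltaNp63, and was listed at 0 in PANC-1.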

How the data were processed

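RNA from 12 samples was measured by sequencing of poly(A) libraries (RNeasy Plus Mini and TruSeq Stranded mRNA kits, per the labels' protocols). What the authors deposited are TPM values for 153329 transcript rows, and each column sums to 1e+06. The quantifier, genome build and annotation are not given in the sources used here. TPM keeps no read depth, so no counting error was computed and 2 replicates per group limit the precision. The labels call the samples biological replicates without naming separate cultures, so p-values measure the spread between these samples, which may be technical.

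Columns were matched to samples by title. TPM was summed to 39099 genes through GENCODE v44 (hg38), which matched 91.2% of the rows, holding 89.6% to 90.5% of a library's TPM. The 14767 genes that reached 1 TPM in 2 or more libraries were tested with limma 3.58.1 in R 4.3.3 (data.table version 1.17.8): log2(TPM + 1), a mean for each of 6 groups, 6 residual degrees of freedom, trend, two-sided, Benjamini-Hochberg within each of 9 comparisons, threshold 0.05. Summaries, promoter searches and plots used Python 3.11.15, pandas 2.3.3, numpy 2.4.6 and matplotlib 3.10.9. The fit was tested on simulated data with 200 changed genes of 14767. The members and gene lists were chosen with earlier results of these data known, and the lists are described by counts and medians. Besides the members and TP63, the named genes are the 2 of each list with the largest change with deltaNp63 in AsPC-1, any list gene passing in PANC-1, and the 8 genes most like the members. The values of 1 further gene that this rule names are not reported here. PECAM1 among the cell type markers and ISG15 among the listed genes were not used here.

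Alternatives were limma without trend, quantile normalization, median centring, other filters on low values, a pseudocount of 0.1, only the groups compared, only the libraries of the line, transcript rows, the replicate block and leaving out each replicate. A further transcript fit, of member transcripts holding at least 5% of a gene, was chosen after seeing the data.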

Additional observations from a re-analysis of the deposited data

Results flagged for a closer look

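For 11 results the effect of a construct differed between the cell lines by a test of the difference itself, the interaction in limma. The fold change in PANC-1 exceeded that in AsPC-1 in each, and each contains the AsPC-1 falls by which the members were known. For TAp63 these were IFI6 at 1.46 (adjusted p 0.0285) and BST2 at 1.01 (adjusted p 0.0392).

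For deltaNp63 the differences were 2.51 in MX1 and 2.76 in MX2, the GTPases, and 2.06 in IFI6. They were 1.33 in IFI44 and 1.96 in IFI44L. The membrane proteins differed by 1.81 (IFITM1), 1.04 (IFITM2), 1.48 (IFITM3) and 1.42 (BST2). The limma adjusted p of these 9 ran from 0.00154 (IFI6) to 0.0345 (IFI44L). IFI44L did not pass in limma after median centring (adjusted p 0.0658), quantile normalization (0.0623) or a pseudocount of 0.1 (0.0638). It also did not pass with only the groups compared (0.136) or without a filter on low values (0.112). IFITM2 did not pass without that filter either (0.0611). With transcript rows IFI44 (0.121), IFITM1 (0.0614) and IFITM2 (0.2) did not pass. With 2 replicates per group no outlier check was possible.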

How the results depend on the processing

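Every fall of a member in AsPC-1 kept its direction under all alternatives that gave 1 value for each member. So did every difference between the lines in a construct's effect, and no called value reversed. In the further fit of single member transcripts, the difference between the lines was below 0 for 1 of 21 with TAp63 (IFI44-202, -0.064). With deltaNp63 it was below 0 for 2 of 21, IFI44-202 (-0.24) and IFI44-209 (-0.16). Fewer libraries in the fit ended nearly all AsPC-1 calls, of members and of other genes. With only the groups compared, 0 members and 0 of 14767 genes passed with either construct. With only the libraries of the line, 0 members passed with TAp63 (1 of 14767 genes did) and 1 with deltaNp63 (8 genes did). Leaving out a replicate, which leaves 1 library in a group, lost some AsPC-1 calls with each construct and added some between the constructs. It changed no direction of a member in these AsPC-1 comparisons. The TAp63 difference between the lines, called in 2 members, passed in 0 without trend and in 0 with transcript rows. In those fits 0 of 14767 genes and 0 of 51675 transcripts passed, so neither count sets the members apart. Under quantile normalization 0 members and 3 of 14767 genes passed, and with only the groups compared 4 members and 14 of 14767 genes. With a mean of at least 5 TPM, 7 members (IFI27 and IFI44L were not tested) and 30 of 10221 genes passed. When a replicate was left out, 0 to 6 members passed. The IFI27 falls did not pass after median centring (adjusted p 0.0803 and 0.0681 in limma), after quantile normalization (0.106 and 0.0931) or without a filter (0.0768 and 0.069). With a pseudocount of 0.1 the IFI27 fall with TAp63 did not pass (limma adjusted p 0.0805). With transcript rows IFI27 did not pass with TAp63 or deltaNp63 (limma adjusted p 0.449 and 0.289). Nor did IFI44 (0.0557) and IFITM2 (0.205) with TAp63. In PANC-1, where no member was called, the sign of a member's change from mock differed from the reported one in 8 of 138 values (1 for each member and alternative) with TAp63 and 11 of 138 with deltaNp63. The cause was not tested.

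Correlations between the deviations of same-numbered replicates ran from -0.094 to 0.293 across genes and did not pass 0.1 for every pair of groups, so the numbers were not taken to pair the samples. Over the 10 members alone they were 0.81, 0.38 and 0.47 in AsPC-1 and ran from -0.11 to 0.28 in PANC-1. With the replicate block 10 members passed in AsPC-1 with each construct, 0 between constructs and 0 in PANC-1, the same counts as without it. Between the mocks 8 passed, where 10928 of 14767 genes did. In the differences between the lines 9 passed with deltaNp63 and 5 with TAp63, where 13 of 14767 genes did for TAp63. For the other comparisons with the block the share of all genes is not reported here, so those counts only describe the members.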
